A study of Mus musculus with 10 samples.

Results

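The genes described here are grouped as methyltransferases of lysine 4, 36 or 79 of histone H3, an activity that is disputed for Kmt2e. They are the 10 genes Kmt2a, Kmt2e, Setd1a, Setd1b, Setd2, Setd7, Nsd1, Smyd2, Smyd3 and Dot1l. They were chosen by gene symbol in the platform annotation, by a rule that uses no measured value, although earlier results of these data were known when the genes were picked, and 24 of the 45037 probe sets in the table carry these symbols. A probe set is a group of array probes that report together on a transcript. The cells were mouse 3T3-L1 preadipocytes, an established fibroblast-like line that can be made to differentiate into fat cells, kept undifferentiated here. They were transfected with 60 nM of an siRNA against Lsd1 (siLsd1) or of a scrambled control siRNA (siC). RNA was taken 24 h after transfection from cells at passage 19 (2 arrays of siLsd1 and 2 of siC) and 48 h after transfection from cells at passage 21 (3 arrays of siLsd1 and 3 of siC), and the labels call the replicates biological. All 4 groups share the cell line and the transfection. The labels do not state how many siRNA sequences targeted Lsd1. The values are linear intensities, and changes are log2 differences, siLsd1 minus siC.

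Methylation of H3K4 marks promoters and enhancers, methylation of H3K36 covers the bodies of transcribed genes, and methylation of H3K79 follows elongating RNA polymerase II. Lsd1, encoded by Kdm1a, is a demethylase that removes mono- and dimethyl marks from H3K4, so it works on the same residue as several of the enzymes described here. In preadipocytes these marks are rewritten when the fat cell programme is switched on.

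The targeted gene was lower in every siLsd1 array than in every siC array of the same time. Kdm1a (1426761_at) measured 327 and 332 intensity units with siLsd1 and 604 and 569 with siC at 24 h, and 448, 449 and 338 with siLsd1 and 656, 643 and 623 with siC at 48 h. Averaged over both times this was a 1.67-fold lower level (log2 change -0.74, limma adjusted p = 0.00128), or -0.67 without siLsd1 48 h replicate 3 (limma adjusted p = 1.16e-05). The brighter Kdm1a probe set, 1426762_s_at, changed less, 1.54-fold lower over both times (limma adjusted p = 0.00734). It was not called at 24 h (limma adjusted p = 0.0763). At 48 h its log2 change was -0.55 (limma adjusted p = 0.0485), or -0.35 without replicate 3. Array medians lay between 35.6 and 40.6 units. The siLsd1 48 h replicate 3 array stood apart: over 10949 brighter probe sets its log2 differences from the other arrays of its group had SDs of 0.46 and 0.454, against 0.0952 to 0.24 for all other replicate pairs. It was the lowest array of its group for 15 of the 20 tested probe sets of the 10 genes (75%), compared with 47.4% of all probe sets tested, so values without it stand beside the changes of the 10 genes. In the median over the 10 arrays, preadipocyte and fibroblast markers exceeded 100 units for 8 of 9 genes measured, with Cd34 the exception at 14.2. Their summed intensity was 40434 to 41084 with siLsd1 and 44662 to 46343 with siC at 24 h, and 33820 to 44204 with siLsd1 and 46935 to 48474 with siC at 48 h. By the same median, none of 6 mature adipocyte, 4 endothelial or 4 epithelial markers exceeded 100 units. Of 5 macrophage and leukocyte markers 2 did, Adgre1 (median 114) and Csf1r (median 106), while Ptprc stayed at 17.0 or below. Of 4 muscle markers 1 (Acta1) had a median above 100 units, and that list summed to 355 to 391 with siLsd1 and 217 to 279 with siC at 24 h, and to 242 to 306 with siLsd1 and 195 to 244 with siC at 48 h. The part of these marker differences in the results below was not tested, and in such bulk RNA fewer cells of a type and less RNA per cell cannot be told apart.

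Promoter windows, the 250 bases before the start of a gene in RefSeq (GRCm38.p6), were read for 6 of the 10 genes: Kmt2a, Setd1a, Setd2, Setd7, Smyd2 and Dot1l. The windows of Smyd2 and Kmt2a are shown because these genes were lower with siLsd1, and that of Setd7 because it was higher at 48 h than at 24 h in control cells. Capitals mark the GC box GGGCGG, the core motif bound by Sp1-family factors, read on either strand. The Smyd2 window lies at chr1:189922292-189922541 (minus strand), that of Kmt2a at chr9:44881290-44881539 (minus strand) and that of Setd7 at chr3:51560824-51561073 (minus strand).
Smyd2: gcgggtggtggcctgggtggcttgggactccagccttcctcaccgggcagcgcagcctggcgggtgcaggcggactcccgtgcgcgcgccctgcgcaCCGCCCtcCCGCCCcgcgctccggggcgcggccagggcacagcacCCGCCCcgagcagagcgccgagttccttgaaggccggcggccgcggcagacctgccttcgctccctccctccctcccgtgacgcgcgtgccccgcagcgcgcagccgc
Kmt2a: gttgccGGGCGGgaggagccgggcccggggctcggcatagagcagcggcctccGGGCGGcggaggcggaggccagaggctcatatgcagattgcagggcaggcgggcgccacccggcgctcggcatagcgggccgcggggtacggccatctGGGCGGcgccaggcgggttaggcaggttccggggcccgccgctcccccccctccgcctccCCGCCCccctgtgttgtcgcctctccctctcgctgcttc
Setd7: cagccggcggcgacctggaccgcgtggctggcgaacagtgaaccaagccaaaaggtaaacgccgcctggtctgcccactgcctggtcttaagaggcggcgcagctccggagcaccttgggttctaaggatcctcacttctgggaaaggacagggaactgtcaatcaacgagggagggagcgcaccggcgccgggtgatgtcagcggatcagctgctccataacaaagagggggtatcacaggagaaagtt

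The Smyd2 window held 3 GC boxes, with 78.8% G or C and 34 CpG sites. The Kmt2a window held 4, with 76.8% G or C and 29 CpG sites. The Setd7 window held none, with 60.4% G or C and 17 CpG sites. All 3 were richer in CpG than the median of all 32851 promoter windows, 6 sites and 52.4% G or C. A GC box was present in 4 of the 6 windows (Dot1l, Kmt2a, Setd2 and Smyd2) and in 32.74% of all windows. None of the 6 held, on either strand, the interferon response core GAAANNGAA (7.13% of all windows), the E2F motifs TTTCCCGC (0.89%) or TTTGGCGC (0.42%), the cAMP response element TGACGTCA (1.55%), the AP-1 motif TGAGTCA (4.46%) or CCAAT (33.85%). These motifs do not contain one another. A match describes the letters only.

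With Lsd1 knocked down, transcripts of the H3K36 methyltransferases Nsd1 and Smyd2 and of the H3K4-linked Kmt2a and Kmt2e were lower, and no probe set of the 10 genes was called higher. Of the 24 probe sets, 20 passed the filter on dim values and entered the test of 33778 probe sets, with a call at a limma adjusted p under 0.05. As the mean of both times, 4 of the 20 (20%) were lower and 0 higher, where 7.43% of all probe sets tested were lower and 5.71% higher. At 48 h, 4 (20%) were lower and 0 higher, against a background of 2.9% lower and 3.08% higher. At 24 h, 1 (5%) was lower and 0 higher, against 0.953% lower and 1.1% higher. The median log2 change of the 20 probe sets was -0.18 for the mean of both times, where the median of all probe sets was -0.02. It was -0.09 at 24 h and -0.13 at 48 h, against -0.01 and -0.03 over all probe sets. In 5 of the 20 (25%) every siLsd1 array lay below every siC array at both times, a pattern found in 11.4% of all probe sets tested. Those 5 were both probe sets of Kmt2a and 1 each of Kmt2e, Nsd1 and Smyd2. In 0 of the 20 did every siLsd1 array lie above every siC array at both times, a pattern found in 8.77% of all.

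Without siLsd1 48 h replicate 3, the mean of both times had 5 of 20 lower and 1 higher (11.8% and 8.68% of all). The 48 h comparison then had 4 lower and 0 higher (5.02% and 4.44% of all). The 24 h comparison then had 2 lower, Nsd1 and Smyd2, and 1 higher, Setd7 (8.51% and 5.45% of all). The count moved at 24 h although no 24 h array was left out, since all groups share an estimate of the spread. Leaving out any other single 48 h array gave 0 calls among the 20 at 24 h, beside 0.841% to 1.51% of all probe sets. A fit without a 24 h array keeps 1 array in that group, and its share of all probe sets called was lower still.

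**Figure D1:**
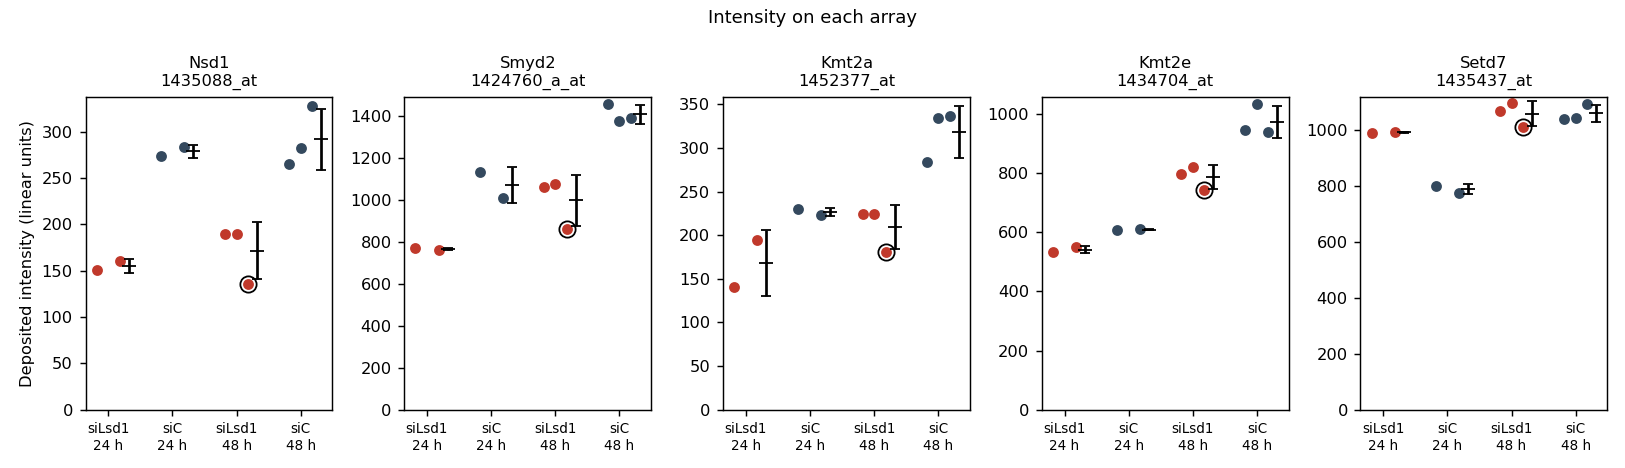
Deposited intensity (linear units) on each of the 10 arrays for 1 probe set each of Nsd1, Smyd2, Kmt2a, Kmt2e and Setd7. Points are arrays (siLsd1 red, siC dark blue), bars show the group mean and SD, and the open circle marks siLsd1 48 h replicate 3; siLsd1 and siC points are separate at both times for all but Setd7, which is separate at 24 h and overlaps at 48 h.

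Nsd1, which adds mono- and dimethyl marks to H3K36, had the largest called decrease among the 10 genes. Its probe set 1435088_at measured 150.2 and 161 units with siLsd1, against 274 and 284 with siC at 24 h. At 48 h it measured 189.8, 189 and 136 units with siLsd1, against 265, 282 and 328 with siC. No siLsd1 array reached any siC array at either time, and replicate 3 was the lowest of the knockdown arrays. Group means were 156 ± 7.52 (siLsd1) and 279 ± 7.18 (siC) at 24 h (SD, n = 2 each), and 172 ± 31.1 (siLsd1) and 292 ± 32.8 (siC) at 48 h (SD, n = 3 each). From high to low the groups ran siC 48 h, siC 24 h, siLsd1 48 h, siLsd1 24 h, and the arrays overlapped between the siC groups and between the siLsd1 groups. The transcript was 1.75-fold lower as the mean of both times (log2 change -0.81, SE 0.12, limma adjusted p = 0.00268), and the decrease was 1.66-fold without replicate 3 (adjusted p = 0.000106, limma). That call held with each of the 10 arrays left out in turn, at a limma adjusted p of 0.0239 or below. Both single times were also called, 1.79-fold lower at 24 h (limma adjusted p = 0.0458) and 1.71-fold lower at 48 h (limma adjusted p = 0.0197), or 1.53-fold at 48 h without replicate 3 (limma adjusted p = 0.00497).

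The 24 h call for Nsd1 was lost in 9 of the 10 fits that leave out an array, with limma adjusted p up to 0.335 and log2 changes of -0.89 to -0.79; it held without siLsd1 48 h replicate 3. Where a 24 h group kept a single array, that array was taken to vary like the other groups. At 48 h the call did not survive leaving out any one of the 3 siC arrays, with limma adjusted p up to 0.0752. Over all 10 fits that leave out an array, the 48 h log2 changes were -0.86 to -0.62. The other tested Nsd1 probe set, 1440972_at, was not called. It measured 45.1 and 44.8 units with siLsd1, against 50.8 and 49.5 with siC at 24 h, and 45.9, 27.2 and 31.4 with siLsd1, against 42.0, 47.4 and 57.7 with siC at 48 h. Its arrays overlapped at 48 h, and its log2 change was -0.34 as the mean of both times (limma adjusted p = 0.223), or -0.31 without replicate 3. With the 2 dim Nsd1 probe sets included in a mean over the gene, the Nsd1 call was lost in all 3 knockdown comparisons (24 h, 48 h and their mean).

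Smyd2, a SET and MYND domain enzyme reported to methylate H3K36 and also non-histone proteins such as p53, was read by 1 probe set, 1424760_a_at. It measured 771 and 764 units with siLsd1, against 1135 and 1012 with siC at 24 h. The 48 h arrays gave 1063, 1078 and 860.4 units with siLsd1, against 1459.6, 1379 and 1390.4 with siC. The siLsd1 arrays were below the siC arrays at each time without overlap. Means were 767 ± 4.79 (siLsd1) and 1074 ± 86.9 (siC) at 24 h (SD, n = 2 each), and 1000.4 ± 122 (siLsd1) and 1409.6 ± 43.7 (siC) at 48 h (SD, n = 3 each). The order of the groups was siC 48 h, siC 24 h, siLsd1 48 h, siLsd1 24 h, with siC 24 h and siLsd1 48 h overlapping. Smyd2 was 1.41-fold lower as the mean of both times (log2 change -0.49, SE 0.08, limma adjusted p = 0.00383), a decrease that was 1.36-fold without replicate 3 (limma adjusted p = 0.000109). This call held with each of the 10 arrays left out in turn. At 48 h it was 1.42-fold lower (limma adjusted p = 0.0209), or 1.32-fold without replicate 3 (adjusted p = 0.00358, limma), a call lost without siC 48 h replicate 1, 2 or 3 (adjusted p up to 0.0799, limma). The 24 h change of -0.48 was not called (limma adjusted p = 0.0727) and was called without siLsd1 48 h replicate 3 (adjusted p = 0.00128, limma).

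Setd2, the enzyme that trimethylates H3K36 behind elongating RNA polymerase II, was not called. Its probe set 1428555_at measured 746 and 701 units with siLsd1, against 790.1 and 922 with siC at 24 h, and 807, 832 and 659 with siLsd1, against 752, 916 and 932 with siC at 48 h. The groups were separate at 24 h and overlapped at 48 h. The log2 change as the mean of both times was -0.21, with a 95% interval of -0.42 to 0.00 (limma adjusted p = 0.183). Without replicate 3 it was -0.16 (adjusted p = 0.185, limma).

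Kmt2a (also called Mll1), the catalytic subunit of an H3K4 methyltransferase complex that keeps Hox genes active, was called lower on 1 of its 2 probe sets. Probe set 1452377_at measured 141 and 195 units with siLsd1, against 229.7 and 223 with siC at 24 h. Values at 48 h were 224, 224 and 180.3 units with siLsd1, against 284, 334 and 337 with siC. No siLsd1 array overlapped the siC arrays of its own time, while siC 24 h overlapped siLsd1 48 h and the siLsd1 groups overlapped each other. Means were 168 ± 38.0 (siLsd1) and 226 ± 4.65 (siC) at 24 h (SD, n = 2 each), and 209.5 ± 25.3 (siLsd1) and 318 ± 29.6 (siC) at 48 h (SD, n = 3 each). The decrease was 1.44-fold as the mean of both times (log2 change -0.53, SE 0.12, limma adjusted p = 0.0167), with 1.52-fold at 48 h (limma adjusted p = 0.0422). Without replicate 3 these were 1.39-fold (limma adjusted p = 0.00664) and 1.42-fold (adjusted p = 0.0429, limma).

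The second Kmt2a probe set, 1427283_at, measured 238 and 216 units with siLsd1, against 286 and 252 with siC at 24 h, and 352, 324 and 197 with siLsd1, against 452, 416 and 408 with siC at 48 h. Its siLsd1 and siC arrays were separate at both times, and across the 10 arrays it tracked the called probe set with Pearson's r = 0.84. Its log2 change of -0.42 as the mean of both times was not called (limma adjusted p = 0.0971), while without replicate 3 it was -0.29 and called (adjusted p = 0.0138, limma). The call of 1452377_at for the mean of both times was lost without siLsd1 24 h replicate 1 or without either siC 24 h array, with log2 changes from -0.64 to -0.41 and limma adjusted p up to 0.0864 over the 10 fits. Its 48 h call was lost in 9 of 10 such fits, the exception being the fit without siLsd1 48 h replicate 3 (adjusted p up to 0.143, limma).

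Kmt2e (also called Mll5), a SET domain protein that binds trimethylated H3K4 through its PHD finger and for which enzyme activity on histones is disputed, had 6 probe sets, of which 5 were tested. The brightest, 1434704_at, measured 533 and 549 units with siLsd1, against 607 and 609.6 with siC at 24 h. At 48 h it measured 797, 822 and 743 units with siLsd1, against 945, 1033 and 938 with siC. All 4 groups were separate, in the order siC 48 h (972 ± 52.5, SD, n = 3), siLsd1 48 h (787 ± 40.1, SD, n = 3), siC 24 h (609 ± 1.58, SD, n = 2) and siLsd1 24 h (541 ± 11.6, SD, n = 2). It was 1.18-fold lower as the mean of both times (log2 change -0.24, SE 0.06, limma adjusted p = 0.0322), with 1.23-fold at 48 h (limma adjusted p = 0.0495). Without replicate 3 the decreases were 1.16-fold (limma adjusted p = 0.00879) and 1.20-fold (limma adjusted p = 0.0295). The mean-of-times call was lost in 6 of the 10 fits without an array (limma adjusted p up to 0.132), namely without any 24 h array or without replicates 2 or 3 of siC at 48 h. The call at 48 h alone was lost in 9 of 10, all but the one without siLsd1 48 h replicate 3 (limma adjusted p up to 0.186).

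The other Kmt2e probe sets were not called with siLsd1 and did not all point the same way. Probe set 1427236_a_at measured 213 and 214 units with siLsd1, against 213 and 210.1 with siC at 24 h, and 241, 269 and 162 with siLsd1, against 414, 417 and 263 with siC at 48 h. Only replicate 2 of siLsd1 reached the lowest siC array at 48 h, and the 48 h change was -0.70 on the log2 scale (limma adjusted p = 0.0787), or -0.49 without replicate 3 (adjusted p = 0.121, limma). The 48 h log2 changes were -0.76 for 1439108_at and -0.50 for 1439107_a_at, and they were -0.32 and -0.04 without replicate 3, which had the lowest value of all 10 arrays on both. The dim 1432602_at, at 6.10 to 30.4 units, had a 48 h change of 0.35, or 0.23 without replicate 3. Over the 10 arrays the Pearson correlations of 1432602_at with the other tested Kmt2e probe sets were -0.003 to 0.29. Those among the other tested probe sets were 0.47 to 0.94.

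**Figure D2:**
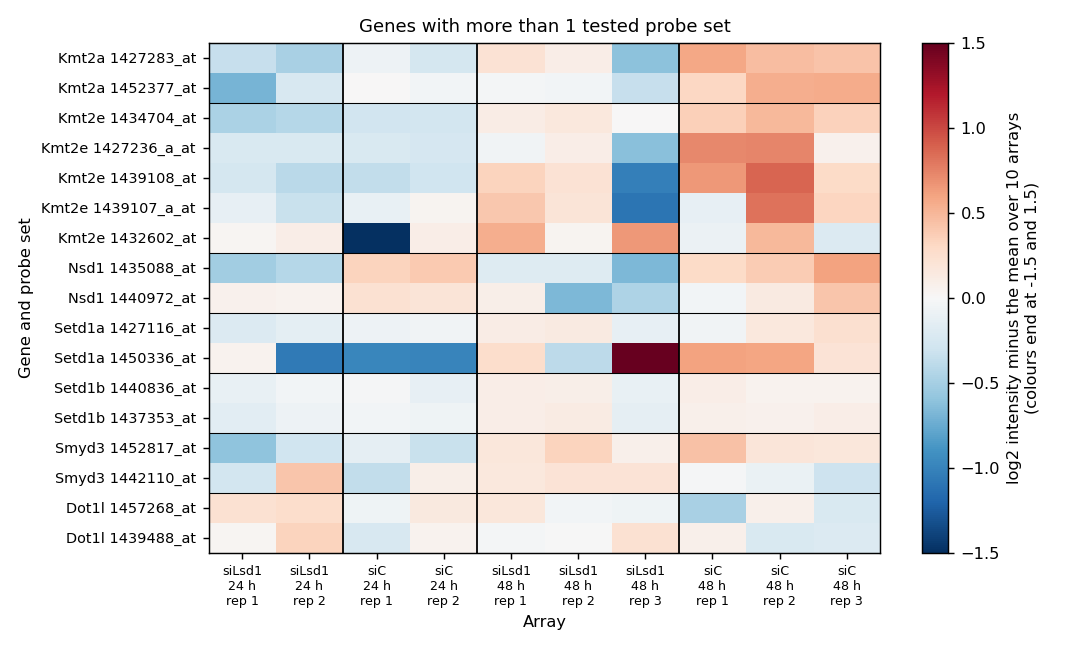
Heat map of log2 intensity minus each probe set's mean over the 10 arrays (colour scale, ending at -1.5 and 1.5) for the 17 tested probe sets of the 7 genes with more than 1, arrays in columns grouped as siLsd1 24 h, siC 24 h, siLsd1 48 h and siC 48 h. Both Kmt2a probe sets are lower in each siLsd1 column than in the siC columns of the same time. The probe sets of Setd1a, Smyd3 and Dot1l do not share a pattern, and in Kmt2e the dim 1432602_at differs from the others.

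Setd7, a monomethyltransferase of H3K4 and of many non-histone proteins, was not called with siLsd1. Its probe set 1435437_at measured 989 and 993 units with siLsd1, against 801 and 776 with siC at 24 h. At 48 h it measured 1066, 1098 and 1009 units with siLsd1, against 1039, 1044 and 1094 with siC. The knockdown arrays were above the controls at 24 h, and the groups overlapped at 48 h. Means were 991 ± 2.62 (siLsd1) and 789 ± 17.3 (siC) at 24 h (SD, n = 2 each), and 1058 ± 44.9 (siLsd1) and 1059 ± 30.6 (siC) at 48 h (SD, n = 3 each). The 24 h log2 change of 0.33 missed the threshold (limma adjusted p = 0.0844), and it passed without siLsd1 48 h replicate 3 (1.26-fold, limma adjusted p = 0.00492). The mean of both times, 0.16 on the log2 scale, behaved likewise (limma adjusted p = 0.0759, or 0.0102 without replicate 3).

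Setd1a and Setd1b, the catalytic subunits of the complexes that trimethylate H3K4 at active promoters, were not called in any comparison with siLsd1. Setd1b probe set 1440836_at measured 1171 and 1233 units with siLsd1, against 1253 and 1163 with siC at 24 h, and 1361, 1342 and 1174 with siLsd1, against 1363, 1319 and 1318 with siC at 48 h. The groups overlapped at both times, and its log2 change as the mean of both times was -0.03 with a 95% interval of -0.16 to 0.11. The second Setd1b probe set, 1437353_at, gave -0.06 (95% interval -0.20 to 0.09) and tracked the first at r = 0.94 over the 10 arrays. Without replicate 3 the values were 0.01 and -0.02. Setd1a probe set 1427116_at measured 236 and 246 units with siLsd1, against 258 and 261 with siC at 24 h, and 293, 299 and 251 with siLsd1, against 263, 303 and 322 with siC at 48 h. The groups were separate at 24 h and overlapped at 48 h, and the log2 change was -0.09 (95% interval -0.29 to 0.11, limma adjusted p = 0.565), or -0.05 without replicate 3. The dim Setd1a probe set 1450336_at ranged from 7.51 to 51.3 units, with its highest value in siLsd1 48 h replicate 3, and gave 0.27 (95% interval -0.62 to 1.16). The sign turned without that array, where the mean of both times was -0.02, and the 48 h change was -0.53, against 0.06 with it.

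Smyd3, a SET and MYND domain enzyme reported to act on H3K4 and on kinases in the cytoplasm, was not called with siLsd1. Probe set 1452817_at measured 95.8 and 119 units with siLsd1, against 132 and 116 with siC at 24 h, and 164, 184 and 153 with siLsd1, against 198, 165 and 164 with siC at 48 h. The groups overlapped at both times, with a log2 change of -0.14 as the mean of both times (95% interval -0.39 to 0.10). The dimmer 1442110_at gave 0.27 (95% interval -0.13 to 0.66), the opposite sign, and the correlation between the 2 probe sets was 0.13. Without replicate 3 they gave -0.11 and 0.26.

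Dot1l, the methyltransferase of H3K79 and the only enzyme of the 10 that lacks a SET domain, averaged above its controls by amounts that did not pass the test. Probe set 1457268_at measured 89.3 and 91.6 units with siLsd1, against 72.9 and 84.3 with siC at 24 h, and 85.7, 73.8 and 72.9 with siLsd1, against 54.5, 80.1 and 65.2 with siC at 48 h. The groups were separate at 24 h and overlapped at 48 h. Its log2 change as the mean of both times was 0.22 (95% interval -0.07 to 0.50, limma adjusted p = 0.301). Probe set 1439488_at, at 22.4 to 33.5 units, gave 0.23 (95% interval -0.13 to 0.60). Without replicate 3 the changes were 0.24 and 0.19.

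**Figure D3:**
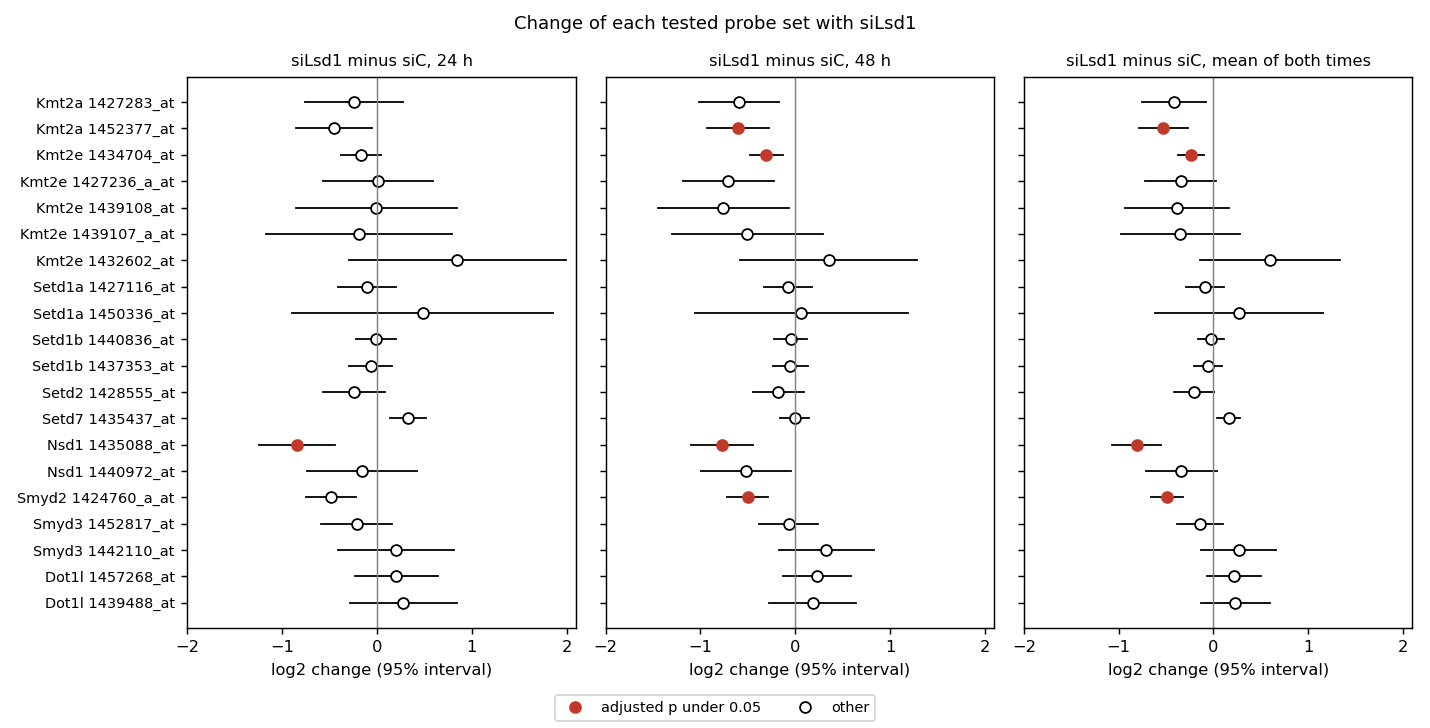
Log2 change (siLsd1 minus siC, horizontal axis) with its 95% interval for each of the 20 tested probe sets of the 10 genes at 24 h, at 48 h and as the mean of both times. Filled red points passed a limma adjusted p under 0.05: Nsd1 in all 3 panels, and Smyd2, 1 Kmt2a and 1 Kmt2e probe set in the 48 h and mean panels.

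The 4 probe sets that did not pass the filter were near the low end of the scale, where the filter's limit was 12.3 units. Kmt2e 1432601_at averaged 15.6 ± 2.48 (siLsd1) and 11.5 ± 2.56 units (siC) at 24 h (SD, n = 2 each), and 9.83 ± 2.52 (siLsd1) and 6.92 ± 1.05 (siC) at 48 h (SD, n = 3 each). Setd7 1423003_at lay between 4.48 and 19.5 units, Nsd1 1456916_at between 4.53 and 20.0, and Nsd1 1420881_at between 1.99 and 7.23. Array values of siLsd1 and siC overlapped at 48 h for all 4 and at 24 h for all but Kmt2e 1432601_at.

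Whether the knockdown changed the genes differently at 48 h than at 24 h was tested as the difference of the log2 changes, 48 h minus 24 h. limma called 0 of the 20 probe sets and 0% of all 33778, with a smallest adjusted p of 0.238 in the whole table. At an unadjusted p under 0.05 there were 1 of the 20 and 1883 of 33778. The 1 was Setd7, whose difference was -0.33 (95% interval -0.57 to -0.09, limma adjusted p = 0.807). For Nsd1 1435088_at the difference was 0.07 (95% interval -0.45 to 0.58) and for Smyd2 -0.02 (95% interval -0.36 to 0.32). Without replicate 3 the differences were -0.30 for Setd7, 0.23 for Nsd1 and 0.09 for Smyd2, and limma called 0 of the 20 and 0.305% of all.

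In control cells 4 of the 20 probe sets (20%) were higher at 48 h than at 24 h and 0 lower, where 10.4% of all probe sets tested were higher and 8.61% lower. Time and passage differ together here and cannot be told apart, and the siC arrays at both times also serve the knockdown comparisons. Kmt2e 1434704_at was 1.60-fold higher (log2 change 0.67, SE 0.09, limma adjusted p = 0.000783), and Setd7 1435437_at 1.34-fold higher (0.43, SE 0.08, limma adjusted p = 0.00439). Both calls held with each of the 10 arrays left out. Smyd2 was 1.31-fold higher (limma adjusted p = 0.0287), and Smyd3 1452817_at 1.41-fold higher (limma adjusted p = 0.0483). The Smyd2 call was kept in 3 of 10 such fits, those without a siLsd1 48 h array, and over all 10 its log2 changes were 0.31 to 0.48. The Smyd3 call was kept in 1 of 10, the fit without siLsd1 48 h replicate 3, and over all 10 its log2 changes were 0.40 to 0.59. The median log2 change was 0.38 over the 20 probe sets and 0.02 over all tested. Without siLsd1 48 h replicate 3, which enters only through the shared spread, 9 of 20 (45%) were called higher and 0 lower (17.2% and 13.9% of all). The 5 added were both Kmt2a probe sets, Kmt2e 1427236_a_at and 1439108_at, and Setd1a 1450336_at. Centring each array on its median moved the median of all probe sets to -0.12, and 2 of the 20 were then called higher, Kmt2e and Setd7.

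Another 12 measured genes were listed as methyltransferases of these residues (32 tested probe sets), a list that includes Setd5 and Setd3. As the mean of both times 2 of these probe sets were lower and 0 higher, against the same 7.43% and 5.71% of all. Setd5, a SET domain protein, was lower on 1439515_at, at 114 and 131 units with siLsd1, against 258 and 253 with siC at 24 h, and 186, 165 and 111 with siLsd1, against 253, 270.1 and 293 with siC at 48 h. These groups did not overlap, and the decrease was 1.94-fold (limma adjusted p = 0.00277), whereas the other Setd5 probe sets gave log2 changes of 0.13 and 0.39 and were not called. Setd3, an actin histidine methyltransferase once studied as an H3K36 enzyme, was 1.34-fold lower on 1451748_a_at (limma adjusted p = 0.0121). Nsd2, the H3K36 dimethyltransferase related to Nsd1, was called at 48 h alone, 1.68-fold higher on 1428827_at (limma adjusted p = 0.0287), with 87.2, 75.1 and 112 units with siLsd1, against 49.7, 54.3 and 56.9 with siC. The other Nsd2 probe sets had 48 h changes of both signs, from -0.32 to 0.38. The median over this list was -0.04 for the mean of both times, and without replicate 3 its calls were 3 lower and 2 higher (11.8% and 8.68% of all).

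Partner proteins were called in both directions, and the counts that follow are for the mean of both times, where 7.43% of all probe sets tested were lower and 5.71% higher (11.8% and 8.68% without replicate 3). Of the 31 tested probe sets of H3K4 complex subunits, 4 were lower and 1 higher as the mean of both times (median log2 change -0.08), and 8 and 2 without replicate 3. Psip1, which tethers Kmt2a complexes to chromatin, was 1.65-fold lower on 1442148_at (limma adjusted p = 0.0239) and 1.19-fold lower on 1460403_at (limma adjusted p = 0.0499). Hcfc1, shared by the Kmt2a and Setd1 complexes, was 1.31-fold lower (limma adjusted p = 0.00787), and Pagr1a was 1.32-fold lower (limma adjusted p = 0.0237). Bod1 was 1.29-fold higher (limma adjusted p = 0.0167). Of the 35 probe sets of Dot1l partners and the super elongation complex, 1 was lower, Aff3 (1.42-fold, limma adjusted p = 0.0406), and 1 higher, Eaf1 (1.31-fold, limma adjusted p = 0.0157), with a median of 0.04 and with 4 and 3 called without replicate 3.

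Against the same shares, of the 32 probe sets of Setd2 partners and readers of methylated H3K36, 3 were lower and 0 higher, with a median of -0.02 and the same counts without replicate 3. They were Hdgfl2 (1.32-fold lower, limma adjusted p = 0.0186), Phf1 (1.32-fold lower, limma adjusted p = 0.0452) and Iws1, which helps recruit Setd2 to elongating polymerase (1.27-fold lower, limma adjusted p = 0.0238). Of the 35 probe sets of H3K4 and H3K36 demethylases, 6 were lower and 2 higher, with a median of -0.03 and with 7 and 3 called without replicate 3. The lower ones include both of Kdm1a, the target itself, and 1 each of the H3K4 demethylases Kdm5b (1.49-fold, limma adjusted p = 0.0236) and Kdm5c (1.48-fold, limma adjusted p = 0.0323), whose other probe sets were not called. Riox2 was 1.49-fold higher (limma adjusted p = 0.00923). The 25 results of the named genes in the related lists, Kdm1a among them, were picked as called in the main fit. Without replicate 3 all were called in the same direction (limma adjusted p up to 0.025). For the mean of both times that fit also called more of all probe sets, 20.5% against 13.1%. This is therefore no independent test of them. Ash1l, Ell3 and Morf4l1 were not matched and are not analysed here.

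**Figure D4:**
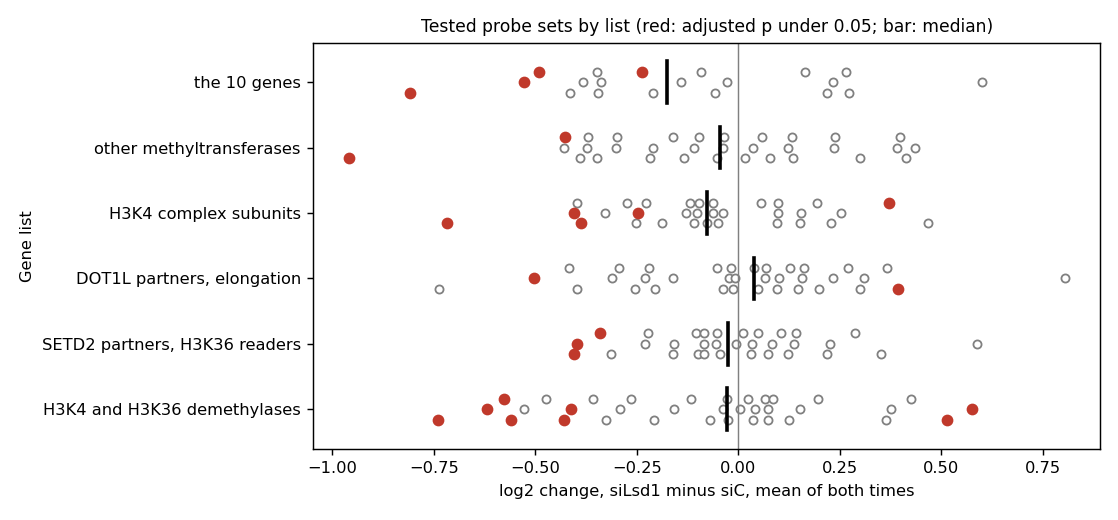
Log2 change as the mean of both times (siLsd1 minus siC, horizontal axis) of every tested probe set in the 10 genes and in 5 lists of related genes; red points passed a limma adjusted p under 0.05 and black bars are medians. The 10 genes have a median of -0.18, and the lists have medians between -0.08 and 0.04. Calls are on the lower side alone for the 10 genes, the other methyltransferases, and the Setd2 partners and H3K36 readers.

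The probe sets most like the called ones across the 10 arrays were found by Pearson correlation of log2 intensity among 27467 candidates, as a description. Nsd1 1435088_at was closest to Atp2b1, Tmem33 and Cntln (r = 0.995, 0.992 and 0.992). Smyd2 was closest to Cdk5rap3, Pip4k2b and Tbc1d16 (r = 0.996, 0.992 and 0.989), and Kmt2a 1452377_at to Glrx, Braf and Mapkbp1 (r = 0.978, 0.974 and 0.974). Kmt2e 1434704_at was closest to Ddb2, Tcea2 and Sbsn (r = 0.995, 0.993 and 0.992). Setd7 was closest to Sat1, Gatad2b and Arfgef2 (r = 0.978, 0.977 and 0.972), and Smyd3 1452817_at to Efna4, Nop53 and Unc119 (r = 0.976, 0.974 and 0.972). The 10 arrays share the 4 groups, so these values follow differences between groups as well as within them.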

How the data were processed

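Expression was measured in 10 samples of 3T3-L1 preadipocytes, each on its own array, with biotin-labelled cRNA prepared by the standard Affymetrix procedure per the labels' protocols. The deposited values are linear intensities, 1 per probe set and array; summarising of probes, background correction and normalization by the authors are steps not given in the sources used here. Arrays give no read depth, so precision rests on their number, 2 or 3 per group. Samples were grouped by siRNA and time from their titles.

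Intensities were taken to log2, the 25% of probe sets with the lowest mean were left out, and the remaining 33778 were fitted with limma 3.58.1 in R 4.3.3, with a mean per group over all 10 arrays, contrasts, an intensity trend in the variance prior and Benjamini-Hochberg adjustment within each comparison. Residual degrees of freedom were 6. The code was tested on simulated data. Probe sets were named by the platform's gene symbol: 34945 carried 1 symbol, 932 several and 9160 none listed. Symbols were checked through Entrez identifiers in the RefSeq table, and probe sets with several symbols were not named. Every probe set of the 10 genes is described. From each related list the text names at most 4 called genes with the largest changes in a knockdown comparison, and for each gene with a called probe set the 3 genes most like it. The genes and lists were chosen with earlier results of these data known. Alternatives covered combining probe sets, the filter, normalization, array weights, the variance prior, the arrays in the fit, replicate blocks, a pseudocount of 16, a floor, and leaving out each array. Promoters were read from RefSeq (GRCm38.p6).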

Additional observations from a re-analysis of the deposited data

How the results depend on the processing

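The probe sets called lower with siLsd1 as the mean of both times numbered 4 and stayed within 1.5 times of that under every alternative but 1, the mean of the probe sets of a gene, which called 2 genes; leaving out each array in turn gave 2 to 5 lower and 0 or 1 higher, 2 to 6 in all. Counts are read beside the share of all features called in the same fit, which moves with the setting. For the mean of both times, 13.1% of all were called in either direction in the main fit. This share was 15.6% with the mean of the probe sets of a gene, and 7.64% to 24.4% over the alternatives. With a 48 h array left out it was 7.29% to 20.5%, and it was lower still without a 24 h array, which leaves 1 array in that group. The calls at single times depended more on the settings. At 24 h (1 call, 2.05% of all) the brightest probe set per gene, array weights and a fit of the 24 h arrays alone each gave 3 (5.39%, 13.1% and 11.4% of all), while the mean of probe sets, no filter and no intensity trend each gave 0 (3.13%, 1.25% and 0.302%), and left-out arrays 0 to 3 (0.0326% to 14%). At 48 h (4 calls, 5.98%) the mean of probe sets gave 2 (6.95%), no intensity trend 0 (1.33%) and the 48 h arrays alone 0 (0.444%), with 0 to 4 when each array was left out (0.787% to 9.46%). In control cells (4 called higher at 48 h, 19% of all called) array weights and the siC arrays alone each gave 9 (31.3% and 25.1%), centring 2 and no intensity trend 2 (21.5% and 15.5%), with 2 to 9 over left-out arrays (8.06% to 31.1%). The mean of its probe sets turned the Setd7 change over time in control cells to -0.11 (limma adjusted p = 0.842), since that mean includes a probe set near 10 units. Quantile normalization, the pseudocount, the floor and the stricter filter changed none of these counts by more than 1.5 times. The difference between times gave 0 calls among the 10 genes under each setting run, and neither it nor the mean of both times has a fit from its own arrays alone. For single probe sets, 1867 of the alternative results kept their side of the threshold and their sign, 117 were uncalled in both fits with opposite signs, 100 lost a call, 55 gained one and 1 called value, the Setd7 change above, turned its sign.

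The replicate numbers gave no sign of a pairing of the samples, though so few arrays cannot settle it. Correlations of deviations between same-numbered siLsd1 and siC arrays were -0.04 at 24 h and -0.13, 0.09 and 0.02 at 48 h. At 24 h the 2 arrays of a group deviate by equal and opposite amounts, so -0.04 is a single value. With the replicate number as a block the counts were 0 at 24 h, 1 at 48 h, 3 for the mean of both times, 0 for the difference and 2 in control cells (0.127%, 1.93%, 7.75%, 0% and 6.63% of all). With the last digit of the sample code as the replicate block they were 2, 4, 4, 0 and 2 (4.26%, 8.38%, 13.2%, 0.0355% and 6.42%). The groups of 2 and 3 arrays, the 1 siLsd1 48 h array that stands apart, dim probe sets and an unstated normalization limit these results. Probe sets of 1 gene disagreed in sign or over the arrays for Smyd3, Setd1a and Dot1l, and for the dim 1432602_at of Kmt2e.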

Other observations

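In control cells, some genes around the 10 methyltransferases were called between the times, in both directions, as were genes of the whole table. Of all probe sets tested, 10.4% were higher and 8.61% lower at 48 h. Of the 31 tested probe sets of H3K4 complex subunits, 1 was higher and 4 lower. For Setd2 partners and H3K36 readers it was 4 higher and 1 lower of 32. For the H3K4 and H3K36 demethylases it was 2 higher and 3 lower of 35. Time and passage cannot be told apart in these values. Of the 35 tested probe sets of Dot1l partners and the super elongation complex, 5 were higher at 48 h and 1 lower. Ccnt2, a cyclin of the elongation kinase P-TEFb, was higher on 3 probe sets, by 3.63-fold, 3.24-fold and 1.34-fold (limma adjusted p = 0.00011, 0.00606 and 0.0381). Mllt6 was 1.77-fold higher and Aff1 1.48-fold lower (limma adjusted p = 0.000815 and 0.0107). Among the 32 tested probe sets of the other genes listed as methyltransferases, 3 were higher and 5 lower. Nsd2 was 2.66-fold lower on 1428827_at (limma adjusted p = 0.000659), the probe set that was 1.68-fold higher with siLsd1 at 48 h, and the siC 48 h arrays serve both comparisons. Kmt2b, a close relative of Kmt2a, was 1.52-fold higher (limma adjusted p = 0.00303). These genes were named after their values were seen.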
